A study of Mus musculus with 6 samples.

Results

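The CXC chemokines described here are 7 genes, Cxcl1, Cxcl2, Cxcl3, Cxcl9, Cxcl10, Cxcl11 and Cxcl16, found by their gene names among the 54660 gene rows of the deposited table. All 7 passed the filter on low counts, which left 13080 genes for testing. They were measured by RNA sequencing in bone marrow-derived macrophages, cells differentiated in a dish from marrow precursors. All cells had been stimulated for 6 h with lipopolysaccharide (LPS), a component of the outer membrane of Gram-negative bacteria. The 2 groups were Xbp1FL/FL (WT below), which carries floxed alleles of Xbp1, and Xbp1M-KO (KO below), in which this gene is deleted in myeloid cells, with 3 libraries each. All mice were C57BL/6 and 6 to 8 weeks old. The sources used here do not name the Cre driver of the deletion. No unstimulated cells were analysed here, so the induction of these genes by LPS was not measured. The labels do not say whether libraries of a genotype came from separate mice, so the p-values below reflect only how much these libraries vary, and that variation may be technical.

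Chemokines are small secreted proteins that direct the movement of leukocytes through G protein-coupled receptors. Members of the CXC family have a single residue between their first conserved cysteines. CXCL1, CXCL2 and CXCL3 carry a Glu-Leu-Arg (ELR) motif before the CXC motif and draw neutrophils through CXCR2. CXCL9, CXCL10 and CXCL11 lack that motif, are induced by interferons and draw activated T cells and NK cells through CXCR3. CXCL16 is made as a transmembrane protein that binds CXCR6 and can be shed from the cell surface. XBP1, the factor deleted here, switches on genes of the unfolded protein response, and the study concerns its link to STING signalling in macrophages and to liver fibrosis.

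The genes other than Cxcl16 lie on chromosome 5, and that one on chromosome 11 (mm10 assembly, equal to GRCm38). Cxcl3 (ENSMUSG00000029379) spans 90786103 to 90789600, Cxcl1 (ENSMUSG00000029380) 90891241 to 90893115 and Cxcl2 (ENSMUSG00000058427) 90903871 to 90905938, all on the plus strand. Cxcl9 (ENSMUSG00000029417) spans 92321347 to 92328079, Cxcl10 (ENSMUSG00000034855) 92346638 to 92348889 and Cxcl11 (ENSMUSG00000060183) 92359544 to 92365485, all on the minus strand. Cxcl16 (ENSMUSG00000018920) spans 70453983 to 70459984 on the minus strand. The deposited table annotates Cxcl11 as a polymorphic pseudogene, and the C57BL/6 allele is known to carry a frameshift, so its counts are a transcript level and not a sign of a full-length protein.

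The promoters of 5 members are shown because 2 gene groups with different known inducers, neutrophil-attracting and interferon-induced, fell in the same libraries. Each line gives the 250 bases before the RefSeq transcription start on GRCm38.p6, with matches to the motifs below in capitals.
Cxcl1: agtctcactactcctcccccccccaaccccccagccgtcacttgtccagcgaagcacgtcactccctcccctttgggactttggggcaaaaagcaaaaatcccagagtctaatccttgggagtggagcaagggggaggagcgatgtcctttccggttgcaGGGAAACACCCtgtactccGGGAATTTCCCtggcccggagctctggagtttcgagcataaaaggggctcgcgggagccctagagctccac
Cxcl2: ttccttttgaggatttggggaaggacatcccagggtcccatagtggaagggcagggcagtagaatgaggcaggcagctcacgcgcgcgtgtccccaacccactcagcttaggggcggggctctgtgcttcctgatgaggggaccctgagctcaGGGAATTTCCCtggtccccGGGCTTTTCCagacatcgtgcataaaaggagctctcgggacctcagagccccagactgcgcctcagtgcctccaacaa
Cxcl3: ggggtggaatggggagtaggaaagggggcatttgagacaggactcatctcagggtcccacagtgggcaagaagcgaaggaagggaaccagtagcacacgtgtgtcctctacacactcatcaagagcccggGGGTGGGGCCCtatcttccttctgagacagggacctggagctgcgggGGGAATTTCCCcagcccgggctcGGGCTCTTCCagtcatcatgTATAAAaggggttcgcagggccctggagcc
Cxcl9: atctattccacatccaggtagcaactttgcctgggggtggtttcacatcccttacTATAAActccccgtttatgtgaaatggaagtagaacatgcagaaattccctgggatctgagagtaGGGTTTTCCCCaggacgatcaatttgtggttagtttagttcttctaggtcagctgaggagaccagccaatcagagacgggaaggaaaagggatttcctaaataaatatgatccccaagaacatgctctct
Cxcl10: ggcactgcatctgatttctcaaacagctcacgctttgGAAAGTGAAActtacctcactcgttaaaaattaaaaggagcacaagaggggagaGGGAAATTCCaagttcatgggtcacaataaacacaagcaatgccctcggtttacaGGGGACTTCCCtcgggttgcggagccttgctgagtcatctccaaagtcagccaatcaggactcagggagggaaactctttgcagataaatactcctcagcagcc
These windows lie at chr5:90890995-90891244 (Cxcl1), chr5:90903649-90903898 (Cxcl2) and chr5:90785851-90786100 (Cxcl3) on the plus strand, and at chr5:92328080-92328329 (Cxcl9) and chr5:92348890-92349139 (Cxcl10) on the minus strand.

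Motifs were searched on both strands in windows of 300 bases, the bases above plus the first 50 after the start, and matches that overlap were marked together. The binding pattern of NF-kB, the main factor activated by LPS, was written as GGGNNNNNCC. It matched in 5 of 5 promoters, and also in 50.8% of all 32851 promoters of the RefSeq table. Cxcl1, Cxcl2 and Cxcl3 shared the match GGGAATTTCC, at -71 to -62, -97 to -88 and -73 to -64 from the start. A minus-strand match overlapped it in each, so the whole shared run was GGGAATTTCCC, 11 bases long. The 10 bases GGGAATTTCC were picked out after the sequences were seen and occurred in 29 of the 32851 promoters (0.0883%). The interferon-stimulated response element, written as 2 GAAA runs with 2 bases between them, matched once, in the Cxcl10 promoter at -213 to -204, and in 3.44% of all promoters. The letters TATAAA, a form of the TATA box, matched at -30 to -25 in Cxcl3 and at -195 to -190 in Cxcl9, against 13.6% of all promoters. Position was not part of the search and other forms were not searched. So the Cxcl9 match is not shown to be a TATA box, and promoters without a match may hold another form. The unfolded protein response element TGACGTGG, a site that XBP1 is known to bind, matched in 0 of the 5 windows and in 0.676% of all promoters. A match or its absence describes only the letters of these windows.

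All 7 CXC chemokine transcripts were lower in KO, and their sum fell from between 0.399% and 0.414% of a library's counts in WT to between 0.246% and 0.247% in KO. The 7 of 7 called lower compare with 29.8% of all tested genes, while 31.5% were called higher and 61.3% in either direction. For all 7, every KO library lay below every WT library, which was also true of 32.3% of tested genes, and 65.9% had no overlap between the genotypes in one direction or the other. Their median log2 fold change was -1.08, against -0.0016 over all tested genes, whose 5th to 95th percentile ran from -0.93 to 0.87. Of the 7, 5 lay below that range, and Cxcl3 and Cxcl16 inside it. The falls of 6 members, all but Cxcl16, were at least 1.5-fold, as were those of 11.6% of tested genes. Cxcl1, Cxcl2, Cxcl9 and Cxcl10 fell by at least 2-fold, as did 3.98% of tested genes. In cultured cells sequenced in bulk, less RNA per cell cannot be told apart from fewer cells that express a gene.

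**Figure D1:**
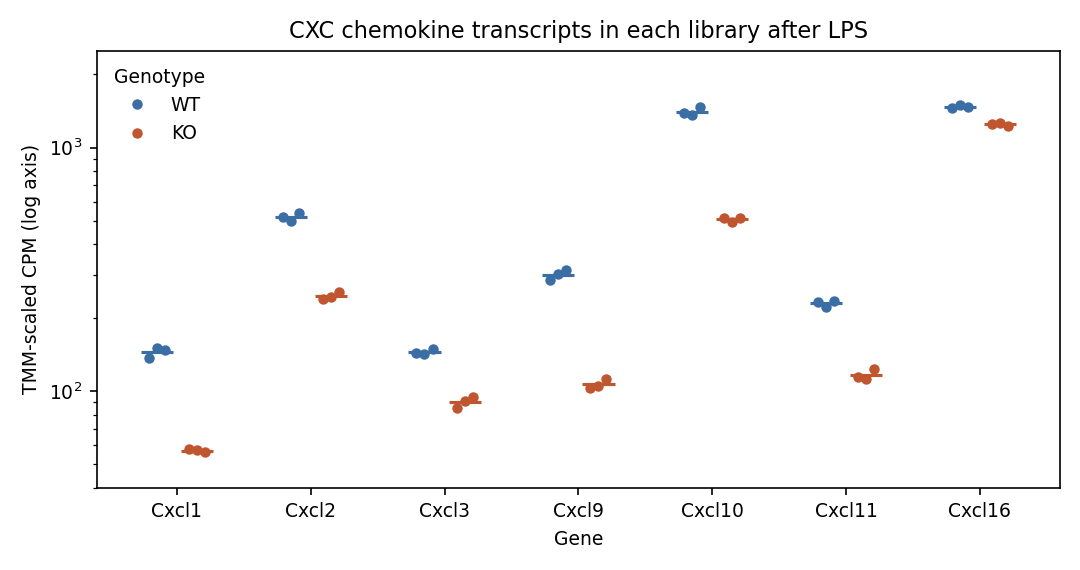
TMM-scaled CPM (log axis) of the 7 CXC chemokine genes in each of 3 WT and 3 KO libraries after LPS. Points are libraries and horizontal lines are group means; the groups are apart for every gene, from 145 against 56.9 CPM for Cxcl1 to 1472 against 1247 CPM for Cxcl16.

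Of the neutrophil-attracting genes, Cxcl1 fell most, Cxcl2 less and Cxcl3 least. Levels here are TMM-scaled counts (CPM), which put all libraries on one common library size. Cxcl1, also known as KC, had 136, 150.3 and 147 CPM in the 3 WT libraries, and the KO libraries had 57.6, 57.0 and 56.1 CPM. The KO libraries lay close together and far below all WT libraries. The mean went from 145 ± 7.29 to 56.9 ± 0.759 CPM (SD, n = 3 each), or -1.35 on the log2 scale with an SE of 0.0411 (quasi-likelihood test of edgeR, Benjamini-Hochberg adjusted p 2.42e-13).

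Cxcl2, also known as MIP-2, had 519, 500.4 and 541 CPM in the WT libraries and 239.7, 244 and 255 CPM in the KO libraries. Its mean fell from 520.3 ± 20.4 to 246 ± 7.59 CPM (a log2 change of -1.08 with an SE of 0.0357, and an adjusted p of 4.66e-13 by edgeR). The spread within a genotype, 3.92% of the mean in WT and 3.08% in KO, was small beside the distance between the genotypes. Cxcl3, the third ligand of CXCR2 here, had 143, 142 and 149 CPM in WT and 85.1, 91.0 and 94.8 CPM in KO. The KO mean was 0.624 times the WT mean, and the groups did not overlap (a log2 change of -0.68 with an SE of 0.0413, and an adjusted p of 5.56e-10 by edgeR).

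Among the interferon-induced genes, Cxcl9 and Cxcl10 had the largest falls of all 7, and Cxcl11 a smaller one. Cxcl9, also known as MIG, had 285, 303 and 315 CPM in the WT libraries and 103, 105 and 112 CPM in the KO libraries. Its mean fell from 301 ± 15.1 to 106 ± 4.57 CPM (a log2 change of -1.50 with an SE of 0.0427, and an adjusted p of 1.07e-13 by edgeR). Of the 13080 tested genes, 102 had a lower log2 fold change. Cxcl10, also known as IP-10, had 1388, 1359 and 1471 CPM in WT and 512, 493 and 516 CPM in KO. The genotypes were far apart, with KO at 0.36 times WT. The log2 change was -1.47 with an SE of 0.0326 (adjusted p by edgeR 8.06e-15), and 115 genes had a lower one.

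Cxcl11, also known as I-TAC, had 231, 222 and 234 CPM in the WT libraries and 114, 112 and 123 CPM in the KO libraries. Its mean fell from 229 ± 6.15 to 117 ± 5.87 CPM (a log2 change of -0.97 with an SE of 0.0399, and an adjusted p of 5.58e-12 by edgeR). The groups stood apart, with KO at 0.509 times WT.

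Cxcl16 was the member with the smallest change. Its transcript had 1455, 1499 and 1463 CPM in the WT libraries and 1254, 1263 and 1225 CPM in the KO libraries. The mean fell from 1472 ± 23.2 to 1247 ± 19.9 CPM, a KO level of 0.847 times WT (a log2 change of -0.24 with an SE of 0.0253, and an adjusted p of 4.01e-07 by edgeR). The fall was larger than the spread within either genotype, which was 1.58% of the mean in WT and 1.59% in KO. Of all tested genes, 32.9% had a lower log2 fold change. With library totals as the only scaling its log2 fold change was -0.12 (adjusted p by edgeR 4.93e-04).

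**Figure D2:**
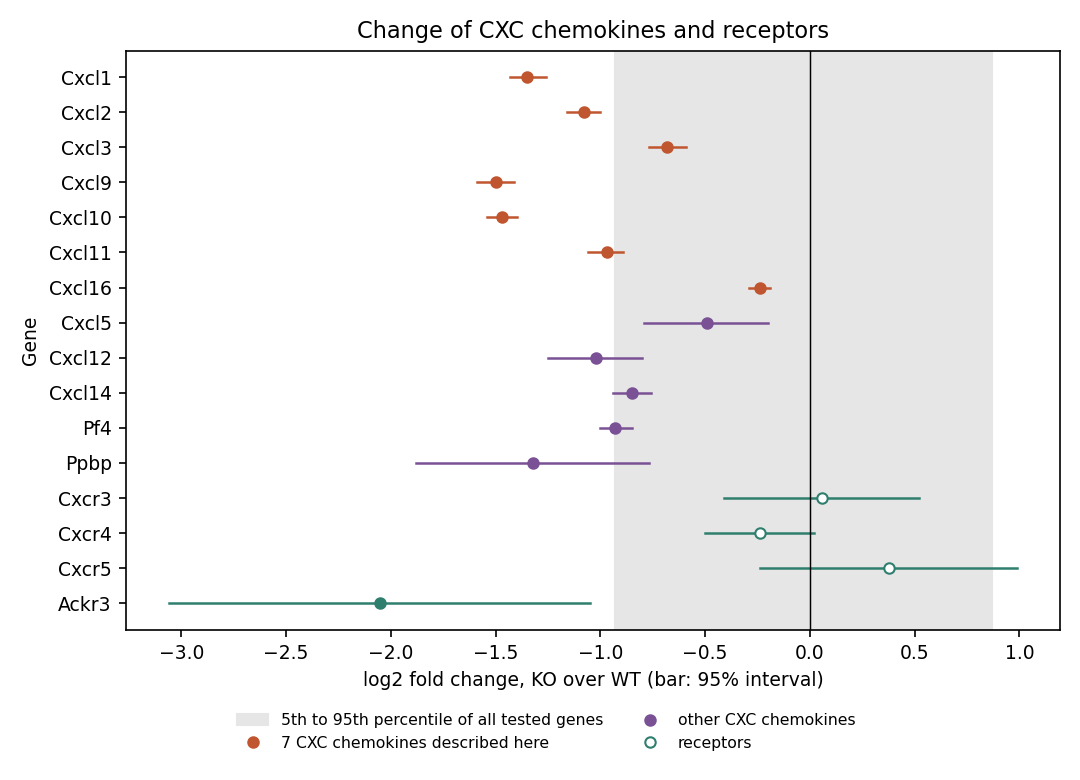
Log2 fold change of KO over WT (horizontal axis) for the 7 CXC chemokines, 5 other CXC chemokines and 4 receptors that were tested, with 95% intervals as bars; filled points have an adjusted p under 0.05. The grey band is the 5th to 95th percentile of all tested genes (-0.93 to 0.87); Cxcl9, Cxcl10 and Cxcl1 lie furthest below it among the 7, and Cxcl16 at -0.24 lies inside it.

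Library totals ran from 31976748 to 42448058 counts. Xbp1 itself was lower in every KO library, with a mean of 89.0 ± 1.96 CPM in WT and 65.8 ± 0.402 CPM in KO (a log2 change of -0.44, adjusted p by edgeR 2.38e-08), and the gene count may include exons outside the deleted part. Macrophage markers were present in all libraries, with a summed level of 37626 to 39106 CPM in WT and 20294 to 20968 CPM in KO, of which most is Lyz2, and 4 of 8 rose and 3 fell. Of 12 neutrophil markers 7 were tested and these 7 rose, but Elane and Prtn3, with at most 8 counts in any WT library, met the filter on low counts through KO alone, so that their rise was favoured. The other 5 were S100a8, S100a9, Ngp, Ltf and Camp, and the 12 markers had a sum of 206 to 224 CPM in WT and 294 to 309 CPM in KO, while Ly6g had 8 counts over all WT and 4 over all KO libraries. Of 9 stromal markers 8 were tested, 4 fell and 1 rose, with a sum of 459 to 473 CPM in WT and 237 to 245 CPM in KO, mostly Acta2. Of 5 platelet markers 3 were tested, and the 2 that fell were Pf4 and Ppbp, which are themselves CXC chemokines. The 5 markers had a sum of 324 to 343 CPM in WT and 171 to 179 CPM in KO, mostly Pf4, while Gp9 had 1 count over all WT and 15 over all KO libraries. Itga2b, the other tested marker, had 25 and 57 counts and met the filter through KO alone. It was not called (a log2 change of 1.00, adjusted p by edgeR 0.0551). Dendritic, endothelial, T, NK and B cell markers summed to at most 7.33, 16.0, 1.68, 0.0960 and 0.151 CPM in any library. For comparison, 31.5% of all tested genes were called higher and 29.8% lower. The part of the marker changes in the fall of the chemokines was not tested.

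Because a ratio of 2 genes within a library does not depend on the scaling between libraries, all 21 pairs of members were compared in that way. With 3 against 3 libraries an exact permutation test cannot give a p below 0.1, so no pair could pass a threshold of 0.05, and 19 of the 21 pairs reached that smallest value (two-sided, adjusted p = 0.111 over the 21 pairs). The genotypes did not overlap for those 19 pairs. The same was true of 59.3% of all pairs of tested genes with reads in every library, and of 85.7% of pairs of genes at least as abundant as the lowest member, so the count of 19 lies near the background of abundant genes and is not read as a result about the chemokines. The widest difference was that of Cxcl9 and Cxcl16, whose log2 ratio of counts went from -2.29 ± 0.0695 in WT to -3.55 ± 0.0831 in KO (SD, n = 3 each; exact permutation p = 0.1). Within the neutrophil-attracting group, the log2 ratio of Cxcl1 to Cxcl3 was -0.07, 0.08 and -0.02 in the WT libraries and -0.56, -0.68 and -0.76 in the KO libraries. Within the interferon-induced group, the log2 ratio of Cxcl10 to Cxcl11 was 2.59, 2.61 and 2.66 in WT and 2.16, 2.13 and 2.07 in KO.

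The 2 pairs whose genotypes overlapped were Cxcl9 with Cxcl10 and Cxcl1 with Cxcl10. The log2 ratio of Cxcl9 to Cxcl10 was -2.23 ± 0.0607 in WT and -2.25 ± 0.0538 in KO (exact permutation p = 0.6, adjusted p = 0.6). That of Cxcl1 to Cxcl10 was -3.28 ± 0.0925 in WT and -3.16 ± 0.0457 in KO (exact permutation p = 0.2, adjusted p = 0.21). These p-values do not show that the pairs changed alike.

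Levels were compared between the genes only per length, as FPKM, which divides reads by gene length and library size, from the deposited table. In WT the order was Cxcl10 (619 ± 24.0 FPKM), Cxcl16 (484 ± 8.94 FPKM), Cxcl2 (249.6 ± 9.05 FPKM), Cxcl9 (99.0 ± 4.92 FPKM), Cxcl1 (76.5 ± 3.96 FPKM), Cxcl11 (59.8 ± 1.43 FPKM) and Cxcl3 (41.0 ± 0.934 FPKM). No neighbours in that order overlapped between libraries. In KO, Cxcl16 came first with 410.4 ± 6.22 FPKM, ahead of Cxcl10 (224 ± 5.61 FPKM), Cxcl2 (118 ± 3.75 FPKM) and Cxcl9 (35.1 ± 1.54 FPKM). Cxcl11 (30.5 ± 1.56 FPKM) and Cxcl1 (30.1 ± 0.377 FPKM) followed and overlapped, and Cxcl3 (25.7 ± 1.41 FPKM) was last. Of the summed FPKM of the 7 genes, Cxcl10 made up between 37.22% and 38.75% in WT and between 24.99% and 25.92% in KO. The share of Cxcl16 was between 28.72% and 30.60% in WT and between 45.86% and 47.74% in KO. The deposited gene lengths span retained introns, 1875 bases for Cxcl1 and 3498 for Cxcl3, so the order depends on that choice of length.

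**Figure D3:**
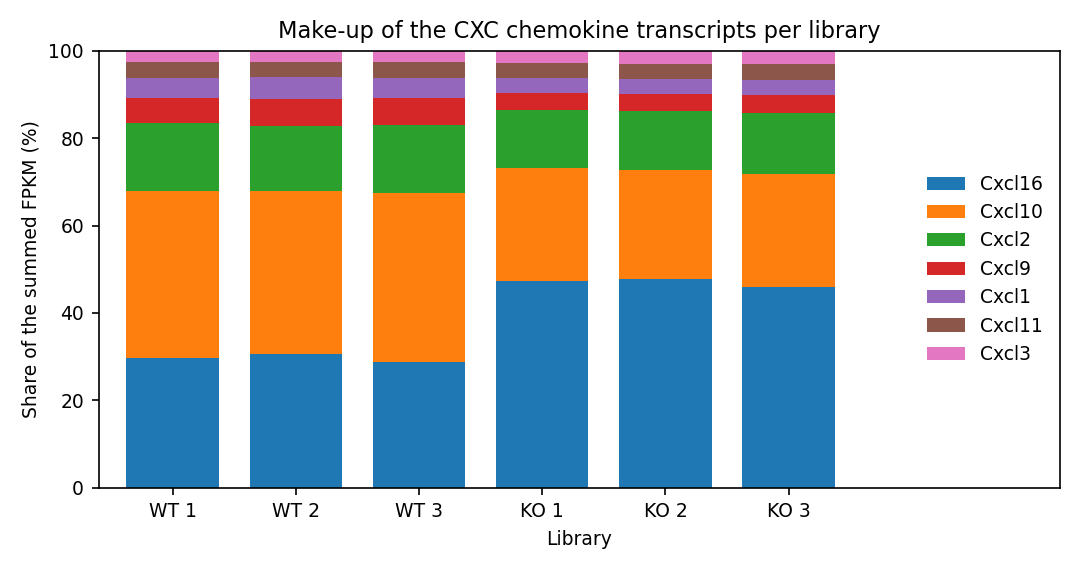
Share of each gene in the summed FPKM of the 7 CXC chemokines (vertical axis, %) in each of the 6 libraries. Cxcl10 makes up 38.02% on average in WT and 25.60% in KO, and Cxcl16 29.70% and 46.97%.

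Some members share sequence or position with other genes. Of the 50-base runs of Cxcl2 transcripts, 5.84% also occur in another gene, all of them in Cxcl3, and of those of Cxcl3 4.29% do, so a few reads could have been split between this pair. Cxcl10 and Cxcl11 lie inside Art3, an ADP-ribosyltransferase gene on the opposite strand, which shares 133 exonic bases with Cxcl10 and had 23 counts over all WT and 25 over all KO libraries. The pseudogene Gm2673 covers 1582 of the 3794 exonic bases of Cxcl11 on the other strand and was at 0 in all 6 libraries. Zmynd15 shares 552 of the 3021 exonic bases of Cxcl16 on the other strand and rose from 55.1 ± 3.13 to 75.6 ± 2.08 CPM (a log2 change of 0.45, adjusted p by edgeR 1.70e-07). The sources used here do not say whether counting kept strand, so reads of Cxcl16 and Zmynd15 in that overlap cannot be told apart.

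The closest expression profiles to each member were found by the root mean square distance between centred log2 CPM values over the 6 libraries, among 10159 genes. For Cxcl1 they were Il27, Glipr2 and Mmp12 (distances 0.035, 0.043 and 0.046), and for Cxcl2 Ifit3, Cav1 and Ifi209 (0.028, 0.031 and 0.033). For Cxcl3 they were Tmem128, Dnajc15 and Pttg1 (0.029, 0.030 and 0.030). The closest to Cxcl9 were Il15, Cxcl10 and Serpina3f (0.038, 0.049 and 0.051), and to Cxcl10 Clec4n, Tnfsf10 and Hmga2 (0.037, 0.040 and 0.041). For Cxcl11 they were mt-Nd1, Zup1 and Sat1 (0.033, 0.034 and 0.035), and for Cxcl16 Isg20, Eif2s3x and Psme4 (0.0091, 0.010 and 0.014). With 2 groups of libraries, closeness mostly means a like log2 fold change.

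The other CXC chemokines of the mouse fell as well where they could be tested. Of 8, 5 were tested and all 5 fell, with a median log2 fold change of -0.93, while 29.8% of all tested genes were called lower. Pf4, which encodes platelet factor 4 and is also made by macrophages, fell from 329 ± 10.8 to 173 ± 4.60 CPM (a log2 change of -0.93 with an SE of 0.0353, and an adjusted p of 2.28e-12 by edgeR), and its value was -0.60 once a trend with GC content and gene length was removed. Cxcl14, a chemokine gene widely expressed in epithelia, fell from 59.8 ± 1.26 to 33.0 ± 1.13 CPM (a log2 change of -0.85, adjusted p by edgeR 5.92e-11). Cxcl12, the CXCR4 ligand of stromal cells, fell from 8.73 ± 0.614 to 4.30 ± 0.503 CPM (a log2 change of -1.02, adjusted p by edgeR 3.75e-07). With limma on log2(FPKM + 1) the value of Cxcl12 was -0.43.

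Ppbp, the platelet chemokine CXCL7, fell by 1.32 on the log2 scale (adjusted p by edgeR 3.18e-04) at only 42 to 55 counts per WT and 19 to 25 per KO library, and its value was -0.85 without the GC and length trend. Cxcl5, another ELR-bearing ligand of CXCR2, changed by -0.49 (adjusted p by edgeR 0.00578), and removal of the trend left -0.10, which was not called (adjusted p by edgeR 0.578). Cxcl13, the B cell chemoattractant, had 6 counts over all WT and 4 over all KO libraries, Cxcl15 had 3 and 6, and Cxcl17 was at 0 in every library. The last 3 were not tested, and 3 counts in a library correspond to between 0.0682 and 0.0960 CPM.

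Receptors for these ligands were scarce in the cultures. Cxcr2, the receptor of the ELR-bearing chemokines, had 6 counts over all WT and 12 over all KO libraries, Cxcr1 was at 0 in all, and Cxcr6, the receptor of CXCL16, had 21 and 14. Cxcr3, the receptor of CXCL9, CXCL10 and CXCL11, had a mean of 1.32 ± 0.136 CPM in WT libraries and 1.36 ± 0.239 in KO libraries (a log2 change of 0.06, 95% interval -0.41 to 0.52, adjusted p by edgeR 0.838). Cxcr4, the CXCL12 receptor, had a log2 fold change of -0.24 (adjusted p by edgeR 0.108), which was called without WT replicate 1 (-0.33, edgeR adjusted p = 0.0478), was -0.08 without WT replicate 3 and was -0.01 without the GC and length trend. Cxcr5, the receptor of CXCL13, was at 0.38 (adjusted p by edgeR 0.273). Ackr3, an atypical receptor that takes up CXCL11 and CXCL12, was the receptor that fell, with 21, 17 and 18 counts in WT and 1, 8 and 6 in KO (a log2 change of -2.05, adjusted p by edgeR 0.00128). The filter on low counts was met by its WT libraries alone, so a fall was favoured, and with limma on log2(FPKM + 1) its value was -0.17. The atypical receptor genes Ackr1, Ackr2 and Ackr4 had between 1 and 6 counts per genotype.

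Genes that process or bind CXC chemokines moved in both directions. Of 8 listed, 7 were tested, 3 fell and 2 rose, with a median of 0.01. Over all tested genes 29.8% were called lower, 31.5% higher and 61.3% in either direction, so these counts are not read as a result about the list. The smallest of the 3 falls, that of the proteoglycan gene Sdc4 at -0.10 (adjusted p by edgeR 0.0129), was not called without the trend (-0.06, adjusted p by edgeR 0.0885), without a filter, or without WT replicate 2, KO replicate 2 or KO replicate 3. With library totals as the scaling Sdc4 was at 0.02, and the list had 2 falls and 3 rises. Mmp12, the macrophage metalloelastase that can cleave ELR-bearing chemokines, fell from 129 ± 1.57 to 51.1 ± 1.26 CPM (a log2 change of -1.34), beside -1.35 for Cxcl1. Mmp8, the neutrophil collagenase gene, fell by 1.01, and Sdc1, which encodes the heparan sulphate proteoglycan syndecan-1, rose by 0.50, or by 0.30 without the GC and length trend, on the log2 scale (all edgeR adjusted p at most 3.68e-09). The sheddases that release CXCL16 had log2 changes near 0, Adam10 at 0.01 (adjusted p by edgeR 0.898) and Adam17 at 0.05 (adjusted p by edgeR 0.222), although Adam17 was called at 0.17 with library totals as the scaling.

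**Figure D4:**
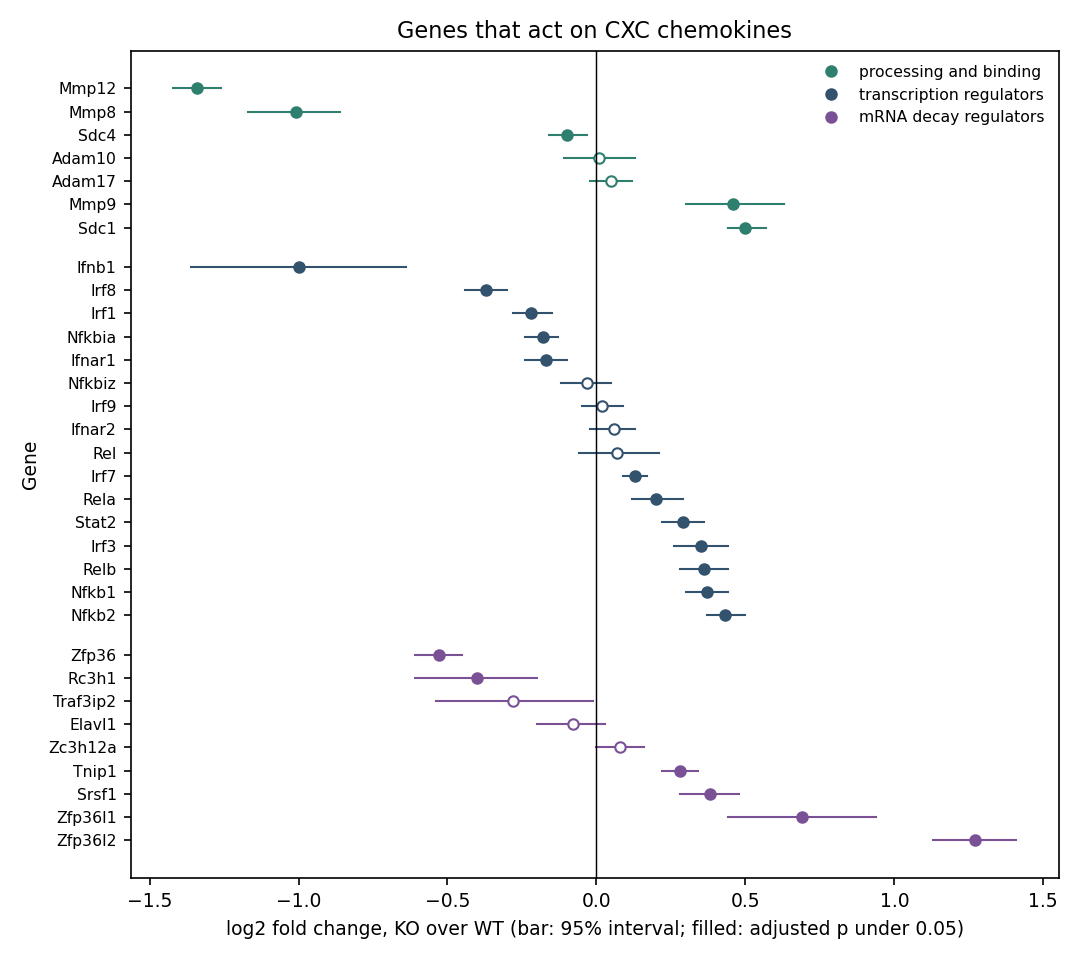
Log2 fold change of KO over WT (horizontal axis) with 95% intervals. The tested genes were listed for processing or binding CXC chemokines, regulating their transcription or decay of their mRNA. Filled points have an adjusted p under 0.05. All transcription regulators but Ifnb1 lie between -0.37 and 0.43; Zfp36 at -0.53 and Zfp36l2 at 1.27 lie on opposite sides.

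Regulators of CXC chemokine transcription moved in both directions. Of 16 tested, 7 rose and 5 fell, with a median log2 fold change of 0.06. These counts were 5 and 8 once the GC and length trend was removed, and 10 and 4 with library totals as the scaling. In the main fit 31.5% of all tested genes were called higher, 29.8% lower and 61.3% in either direction. The counts are therefore not read as a result about the regulators. Ifnb1, which encodes interferon beta, had 143, 129 and 121 counts in WT and 56, 59 and 109 in KO, and fell from 3.91 ± 0.0442 to 1.93 ± 0.480 CPM (adjusted p by edgeR 7.57e-05), with a log2 change of -0.50 once the trend was removed. Irf8 fell by 0.37 and Irf1, an interferon regulatory factor that binds the Cxcl9 and Cxcl10 promoters, by 0.22 on the log2 scale, and without the trend these values were -0.64 and -0.39. With library totals as the scaling Irf1 was at -0.10 (adjusted p by edgeR 0.0128). Other interferon genes of the list went both ways. Stat2, Irf3 and Irf7 rose by 0.29, 0.35 and 0.13, and Ifnar1 fell by 0.17 on the log2 scale (edgeR adjusted p at most 2.12e-04). Without the trend these 4 values were 0.05, 0.16, -0.08 and -0.37. Ifnar2 and Irf9 were not called. Nfkb2, an NF-kB subunit gene, rose by 0.43, or by 0.27 without the trend. Nfkbia, which encodes the inhibitor IkBa, fell by 0.18, and its value was -0.07 with library totals as the scaling. Nfkbiz, whose product IkBzeta is a coactivator for a subset of NF-kB targets, was at -0.03 (adjusted p by edgeR 0.470), and at -0.19 (adjusted p by edgeR 3.52e-04) without the trend.

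Among 9 genes listed for chemokine mRNA decay, 4 rose and 2 fell, with a median of 0.08, and without the trend 4 rose and 4 fell. For comparison, the main fit called 31.5% of all tested genes higher, 29.8% lower and 61.3% in either direction. These counts are therefore not read as a result about mRNA decay. The list pools genes with different actions on decay. It includes Tnip1, at 0.28 (adjusted p by edgeR 2.81e-07), whose role in decay is not established here. Zfp36, which encodes tristetraprolin, a protein that binds AU-rich elements such as those of CXC chemokine mRNAs and speeds their decay, fell from 166 ± 4.72 to 115 ± 4.47 CPM (a log2 change of -0.53, adjusted p by edgeR 4.21e-09). Its relatives Zfp36l1 and Zfp36l2 rose by 0.69 and 1.27 on the log2 scale (edgeR adjusted p = 7.48e-05 and 8.09e-11), Zfp36l2 from 20.3 ± 2.12 to 49.0 ± 2.70 CPM.

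The genes beside the 3 chemokine loci were described by taking every gene whose start lies within 500 kb of a member. Over all tested genes, 29.8% were called lower, 31.5% higher and 61.3% in either direction. The counts below are not read as an effect of position. Beside Cxcl1, Cxcl2 and Cxcl3, 6 of 28 genes were tested, and 5 of them fell. Of these 5, 3 are the chemokines Cxcl5, Ppbp and Pf4, and the others are Afp, the alpha-fetoprotein gene, and Mthfd2l, a mitochondrial folate enzyme gene, which fell by 0.98 and 0.68 on the log2 scale. Beside Cxcl9, Cxcl10 and Cxcl11, 13 of 34 were tested, with 2 higher and 4 lower in KO and a median of -0.11. There Sdad1 and Nup54 rose by 0.35 and 0.51, and G3bp2, Gm15710 and Scarb2 fell by between 0.11 and 0.55. The remaining fall was that of Ppef2, with few reads, 79 counts over all WT and 34 over all KO libraries (a log2 change of -1.35, adjusted p by edgeR 0.00976). Beside Cxcl16, 15 of 35 tested genes rose, by between 0.10 and 1.11, and 8 fell, by between 0.12 and 0.93, with a median of 0.18. Those that rose were Ctdnep1, Dvl2, Acadvl, Dlg4, Slc16a13, Pelp1, Arrb2, Zmynd15, Pld2, Mink1, Slc25a11, Pfn1, Camta2, Kif1c and Nup88, and those that fell were Elp5, Gabarap, Phf23, Med11, Psmb6, Spag7, Inca1 and Scimp.

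The log2 fold changes of the chemokines were recomputed in 15 other ways. All 7 were called lower in each of them, with adjusted p-values of at most 4.93e-04. Removal of the GC and length trend moved the median of the 7 from -1.08 to -0.89, with Cxcl1 at -1.07, Cxcl2 at -0.85 and Cxcl3 at -0.52. Cxcl9 and Cxcl10 were then at -1.31 and -1.34, Cxcl11 at -0.89 and Cxcl16 at -0.26. The authors' deposited table gives -1.34 for Cxcl1, -1.50 for Cxcl9 and -0.24 for Cxcl16.

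**Figure D5:**
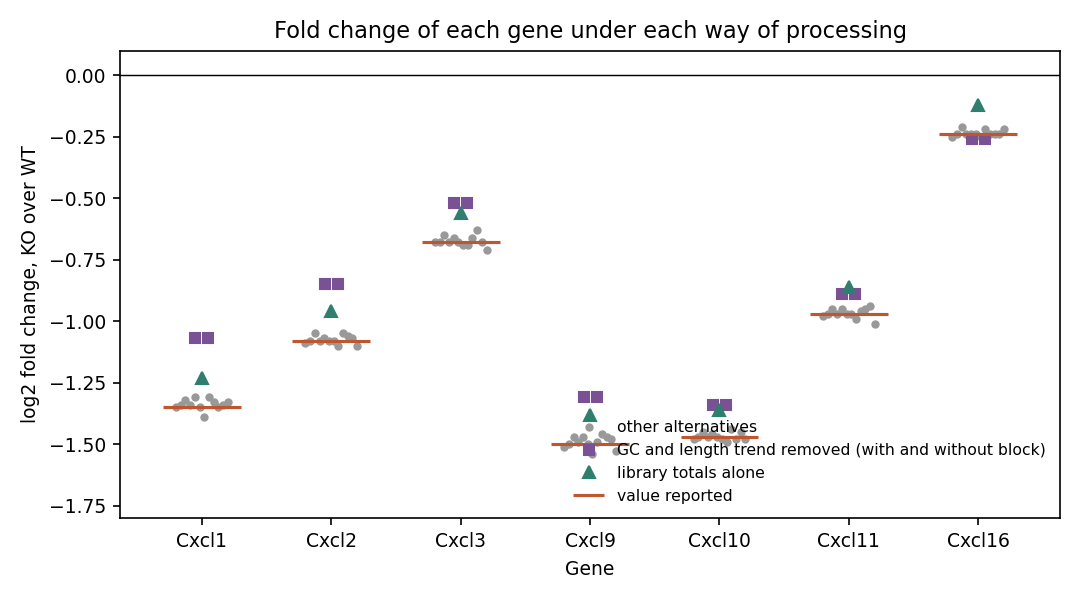
Log2 fold change of KO over WT (vertical axis) of each CXC chemokine under the reported fit (line) and 15 alternatives (points). Removal of the GC and length trend (squares) moves Cxcl1 from -1.35 to -1.07, and scaling by library totals alone (triangles) moves Cxcl16 from -0.24 to -0.12; all values are below 0.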

How the data were processed

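RNA sequencing counts of 3 WT and 3 KO macrophage libraries were analysed. The count columns hold unnormalized reads by gene, per the file headers. The deposited FPKM values were scaled by the authors by gene length and a library size other than the library total. With limma on log2(FPKM + 0.1) the median log2 fold change was 0, against 0.11 with library totals alone. The authors also deposited mean normalized counts per genotype as signal columns, a log2 fold change, and its p-value, made with a tool that the headers do not name. The submitters' processing notes list Bowtie 0.12.2 and, as builds, mm8 and mm10, with no role for any of them. Positions of the 7 genes were identical in GENCODE vM21 (mm10), as were 98.3% of all identifiers found there. Promoters came from RefSeq on GRCm38.p6.

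Differences were tested with edgeR 4.0.16 (R 4.3.3), quasi-likelihood test, with TMM scaling, genotype alone in the model and the filterByExpr filter, which left 13080 genes, with Benjamini-Hochberg adjustment over all of them and a threshold of 0.05. SEs follow from the fold change and the F statistic. Tested on simulated counts of KO against WT over 13038 genes, 95% of genes changed 1.5-fold were found, 99% of those changed 2-fold, and 7 unchanged genes were called. The simulation changed 100 genes at each size, drawn only from genes with higher counts, and gave all genes the same dispersion. Its figures therefore do not cover genes with few counts. Alternatives used limma 3.58.1 on log2 FPKM with a pseudocount of 0.1 or 1, DESeq2 1.42.0, other scalings, no filter, a replicate block, left-out libraries and a lowess trend on GC content and length. The table has 128 rows without an Ensembl mouse gene ID, none of which is a gene named here. The 7 genes, the related lists and the tests were chosen with earlier results of these data known. All members were named; for related lists, the 3 called genes with the largest change and 4 set regulators were named, and all other CXC chemokines and receptors. Genes beside a member were named if called with a mean of at least 1 CPM, and the 3 nearest profiles of each member among genes of that level with a symbol other than Gm or Rik names. Art3, Gm2673, Adam10, Adam17, Sdc4, Stat2, Irf3, Irf7, Irf9, Ifnar1, Ifnar2, Itga2b, Ppef2, Tnip1 and the neutrophil markers were named after values were seen. The shares over gene pairs were also added after values were seen. A regulator on the list of transcription regulators is not reported here and is left out of its counts. Of 7 members, 5 had a promoter in the RefSeq table. Library pairs of one genotype differed beyond sampling noise (chi-square per degree of freedom 2.66 to 5.91), so none was counted as a duplicate.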

Additional observations from a re-analysis of the deposited data

How the results depend on the processing

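The direction and call of all 7 chemokine fold changes, and the count of 7 members called lower, were kept under all 15 alternatives. Leaving out 1 library at a time moved Cxcl1 between -1.39 and -1.31, Cxcl3 between -0.71 and -0.63, Cxcl9 between -1.54 and -1.46 and Cxcl16 between -0.25 and -0.22. Scaling by library totals alone put the median gene at 0.11 (log2), and 63.4% of calls were then higher in KO, against 51.3% with TMM. Under that scaling Sdc4 changed from -0.10 to 0.02. With the GC and length trend removed, with and without a replicate block, Irf7 changed from 0.13 to -0.08 and Irf9 from 0.02 to -0.16. The cause of these reversals was not tested. Genes called lower and higher in KO numbered 3904 and 4115, and 3897 and 4116 with the replicate block. The replicate block left every call on the 7 members in place. Deviations of same-numbered libraries correlated at only 0.00757 to 0.0644. Because these values are small, the numbers were not taken as pairs, although 4 of 6 libraries correlated best with their own number. Depth does not limit the 7 members, the least abundant of which had 1914 counts in its lowest library. It does limit Cxcl13, Cxcl15, Cxcl17 and most receptors.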
